A study of Mus musculus with 2 samples.

Results

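The colony-stimulating factors and their receptors were examined in single cells of ulcerated mouse skin. The members were chosen by gene symbol and are the ligands Csf1, Csf2, Csf3 and Il34 and the receptor chains Csf1r, Csf2ra, Csf2rb and Csf3r. They are 8 of the 33696 genes listed, and each symbol had 1 row. The study held 2 libraries, 1 from lesional skin of a mouse sample labelled with whole-body Has2 overexpression (Has2-TG) and 1 from lesional skin labelled wild type (WT). Has2 makes hyaluronan, a polysaccharide of the skin matrix. The series models scratching-induced ulcerative dermatitis, and the skin of both had been tape-stripped 40 to 50 times a day for 15 days. Any step before the stripping, age, strain, the promoter behind the transgene and the number of animals per library were not given in the sources used here. Each genotype had a single library, so differences were described without a test, and the effects of genotype, animal and preparation cannot be told apart. The 95% intervals given cover counting error and nothing else.

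Colony-stimulating factors are secreted proteins that keep blood-derived phagocytes alive, make them divide and arm them. Csf1 (M-CSF) and Il34 both bind Csf1r, a receptor tyrosine kinase of monocytes, macrophages and osteoclasts, and Il34 is best known in skin as the keratinocyte product that maintains Langerhans cells. Csf2 (GM-CSF) binds Csf2ra, its own chain, paired with Csf2rb, the beta chain shared with the IL-3 and IL-5 receptors, while Csf3 (G-CSF) acts through Csf3r and drives the output of neutrophils.

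The RefSeq promoter table (build GRCm38.p6) held 4 of the 8 members, and their 250 bases before the start are shown because they belong to a pair of ligands found mainly in fibroblast-like cells and a pair of receptor chains found mainly in myeloid cells. The windows are chr3:107760470-107760719 on the minus strand for Csf1, chr11:54249900-54250149 on the minus strand for Csf2, chr19:61228419-61228668 on the minus strand for Csf2ra and chr4:126024409-126024658 on the plus strand for Csf3r. Capitals mark matches, on either strand, to AP-1 (TGANTCA), NF-kB (GGG, 3 bases of any kind, TTCC), C/EBP (TTNCNNAA) or PU.1 (GAGGAA) letters, and N is any base.
Csf1: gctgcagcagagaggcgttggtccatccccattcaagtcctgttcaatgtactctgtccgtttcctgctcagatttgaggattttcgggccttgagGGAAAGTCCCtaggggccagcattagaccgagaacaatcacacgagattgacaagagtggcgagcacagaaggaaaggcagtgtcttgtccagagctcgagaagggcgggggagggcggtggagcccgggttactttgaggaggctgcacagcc
Csf2: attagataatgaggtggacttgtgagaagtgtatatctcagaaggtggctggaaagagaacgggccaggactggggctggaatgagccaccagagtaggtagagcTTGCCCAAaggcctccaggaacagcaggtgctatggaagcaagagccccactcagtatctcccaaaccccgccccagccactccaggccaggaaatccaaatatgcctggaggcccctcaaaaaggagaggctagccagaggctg
Csf2ra: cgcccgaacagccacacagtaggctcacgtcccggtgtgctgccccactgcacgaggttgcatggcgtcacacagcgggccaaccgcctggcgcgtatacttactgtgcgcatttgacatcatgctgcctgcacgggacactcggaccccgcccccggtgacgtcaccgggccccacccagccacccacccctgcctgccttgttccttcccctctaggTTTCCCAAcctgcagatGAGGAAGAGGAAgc
Csf3r: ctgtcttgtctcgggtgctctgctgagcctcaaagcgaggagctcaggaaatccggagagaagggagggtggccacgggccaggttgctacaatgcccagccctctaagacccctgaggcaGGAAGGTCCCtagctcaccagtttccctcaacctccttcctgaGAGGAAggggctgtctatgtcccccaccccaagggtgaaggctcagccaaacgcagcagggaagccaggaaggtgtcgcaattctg
Csf1 and Csf3r each held an NF-kB match, on the strand opposite the gene. Csf2 held a C/EBP match, and so did Csf2ra. The PU.1 letters occurred once in the Csf3r window and at 2 adjoining places in that of Csf2ra, from base -14 to -9 and from -8 to -3, and in neither ligand window. No window held the AP-1 letters. Among 32536 distinct windows of the same length, 6.73% held a match to AP-1, 4.65% to NF-kB, 36.8% to C/EBP and 23.4% to PU.1, and a match is a description of letters only.

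The Has2-TG library held 14622 barcodes and 134917708 UMIs (unique molecular identifiers, each counting 1 captured transcript), and the WT library 16999 barcodes and 143875454 UMIs. After filtering, 13562 Has2-TG and 15683 WT cells remained, with median depths of 4177 and 4168 UMIs. Has2 itself had 86.8 CPM in Has2-TG cells and 72.5 CPM in WT cells, a ratio of 1.198 (1.17 to 1.23). Cells were assigned to classes by markers that include no member, and 5 classes had at least 100 cells in each library. These were 2280 Has2-TG and 2138 WT fibroblast-like cells, 4092 and 4899 macrophage or monocyte-like cells, 5487 and 6614 neutrophil-like cells, 228 and 220 endothelial-like cells, and 127 and 213 T cell-like cells. In each of the 5, every marker of the class's own list was found in at least 10% of its cells. Keratinocyte-like cells, which define the epidermis, made up 1.28% of Has2-TG and 0.128% of WT cells, so little of either library was epidermal. A total of 79 barcodes occurred in both libraries. Levels are CPM, the member's UMIs per 1000000 UMIs of that class in that library.

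The ligand and receptor sides fell on different cells. Fibroblast-like cells held 84.7% of Csf1 UMIs in the Has2-TG library and 78.8% in the WT library. For Csf2 they held 95.4% in Has2-TG and 90.8% in WT, and for Csf3 69.6% in Has2-TG and 76.0% in WT. Macrophage or monocyte-like cells held 82.1% of Csf1r UMIs in Has2-TG and 86.8% in WT, and neutrophil-like cells held 86.7% of Csf3r UMIs in Has2-TG and 89.8% in WT. The GM-CSF receptor chains were spread over both myeloid classes. Of Csf2ra UMIs, macrophage or monocyte-like cells held 51.5% in Has2-TG and 52.0% in WT, and neutrophil-like cells 35.5% in Has2-TG and 39.4% in WT. Of Csf2rb UMIs, macrophage or monocyte-like cells held 57.6% in Has2-TG and 62.0% in WT, and neutrophil-like cells 24.7% in Has2-TG and 22.8% in WT.

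**Figure D1:**
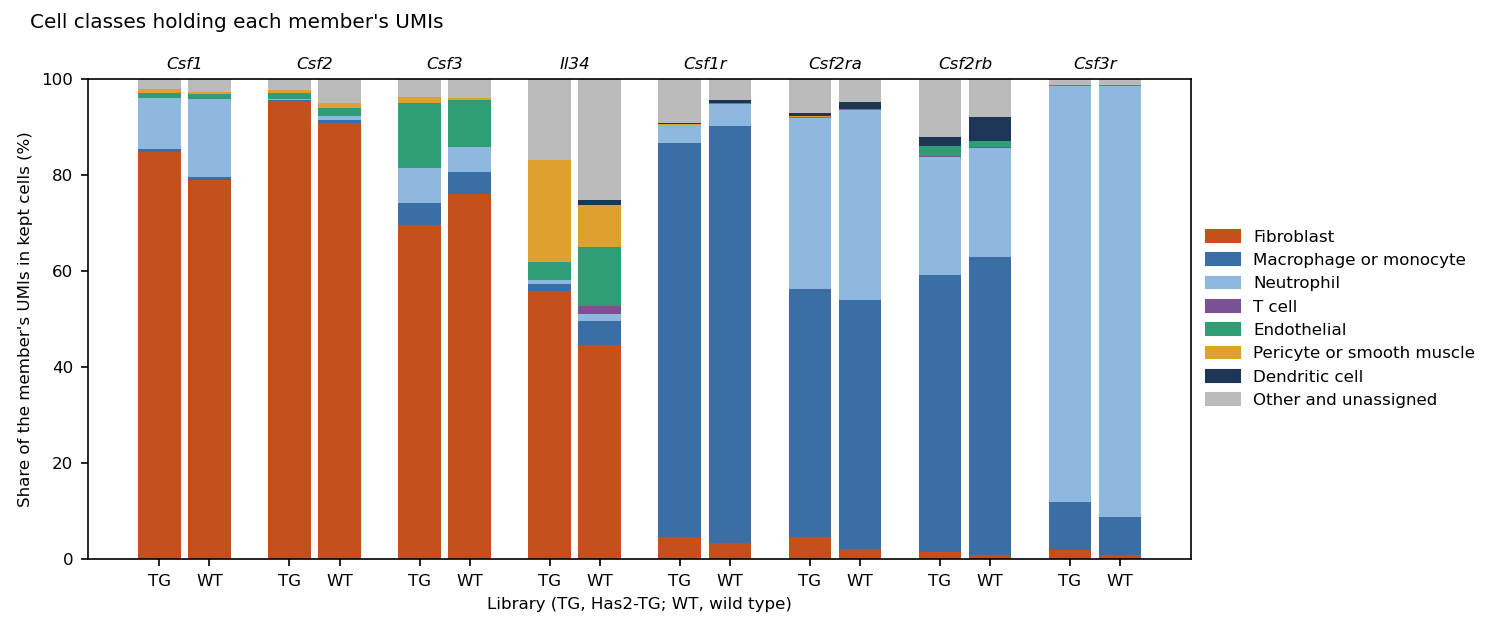
Share of each member's UMIs (%, vertical axis) held by each cell class in the Has2-TG library (TG, left bar of a pair) and the WT library (right bar). Csf1, Csf2 and Csf3 lie mostly in fibroblast-like cells, Csf1r in macrophage or monocyte-like cells and Csf3r in neutrophil-like cells, in both libraries.

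Summed over all kept cells, Il34 was higher in the Has2-TG library and Csf3 lower. Il34 had 4.996 CPM in Has2-TG and 1.47 CPM in WT cells, a ratio of 3.41 (2.89 to 4.04). Csf3 had 203 CPM in Has2-TG and 339 CPM in WT cells, a ratio of 0.597 (0.588 to 0.607). Of the 8 members, Il34 alone was past 2-fold, where 7.74% of 15948 genes were past 2-fold higher in Has2-TG and 2.41% past 2-fold lower. In such sums, a change in the number of cells of a type and a change of RNA per cell cannot be told apart, so the classes were then taken one by one.

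In fibroblast-like cells 3 of the 4 ligands were lower in the Has2-TG library and Il34 was higher. Csf1 had 596 CPM in Has2-TG and 756 CPM in WT cells, a ratio of 0.788 (0.776 to 0.800). Csf2 had 182 CPM in Has2-TG and 307 CPM in WT cells, a ratio of 0.591 (0.576 to 0.606). Csf3 had 298 CPM in Has2-TG and 711 CPM in WT cells, a ratio of 0.418 (0.411 to 0.426). Csf3 thus had the lowest ratio of the 4 ligands in this class. Il34 had 341 UMIs or 5.89 CPM in Has2-TG cells and 83 UMIs or 1.80 CPM in WT cells, a ratio of 3.27 (2.57 to 4.21). A UMI of Il34 was found in 10.8% of Has2-TG and 3.18% of WT fibroblast-like cells, and no cell of either library held more than 5. Of the 8 members measured, with at least 100 UMIs over both libraries, 1 was past 2-fold higher and 1 past 2-fold lower, against 6.31% higher and 1.4% lower among 12887 genes.

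**Figure D2:**
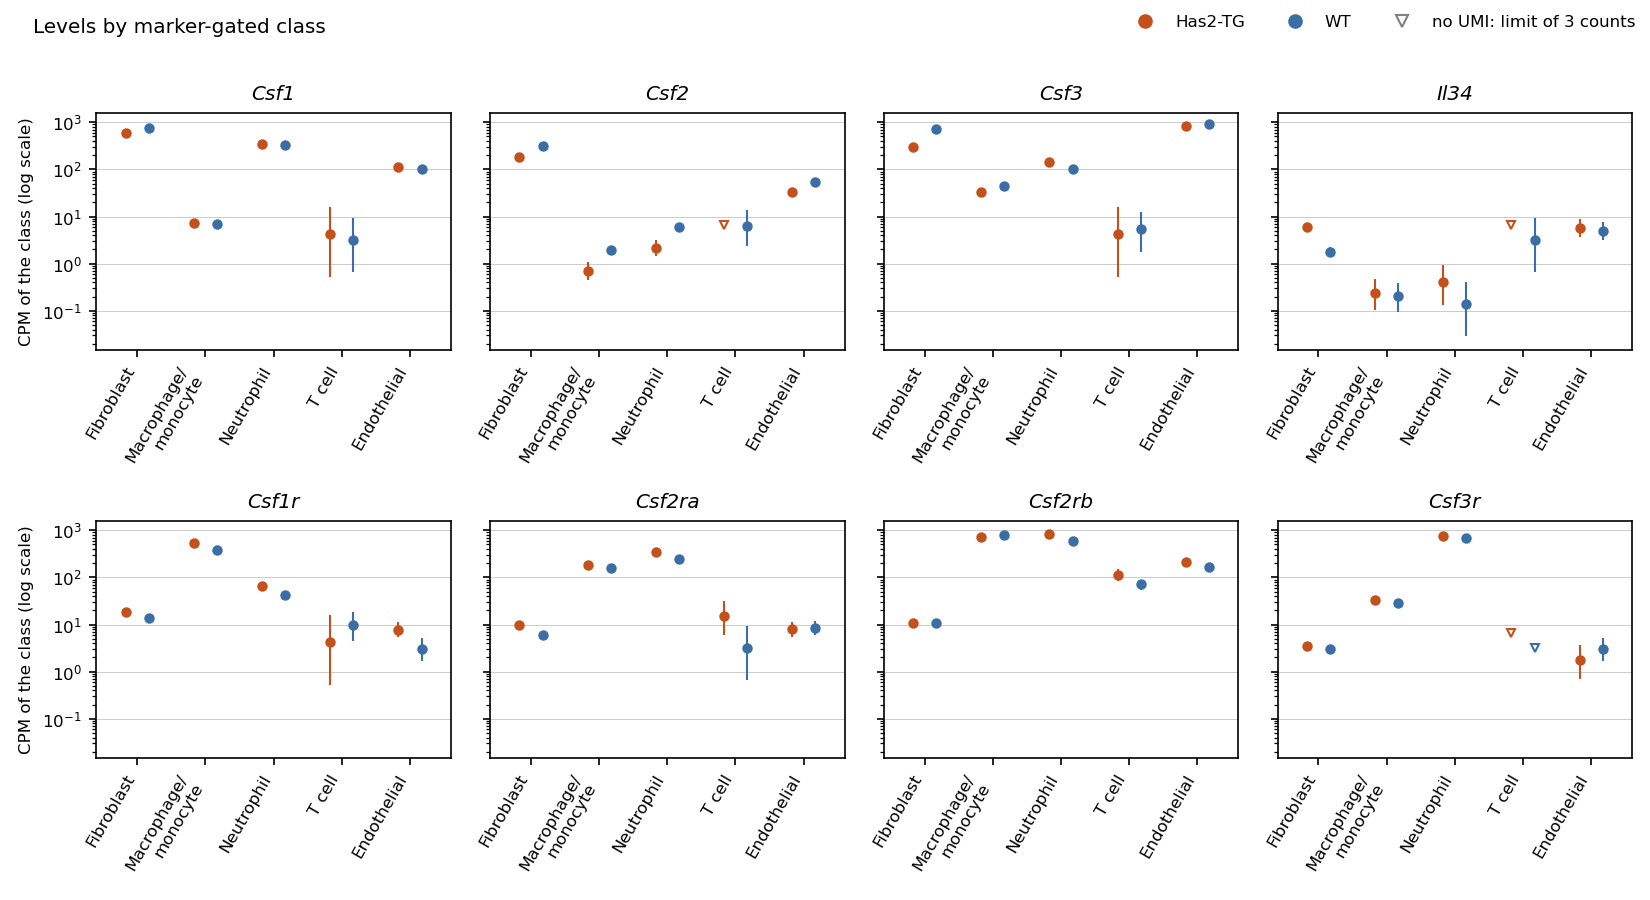
Levels of the 8 members (CPM of the class, log scale) in the 5 compared classes, Has2-TG left of WT. Points are single libraries, bars are 95% Poisson intervals and open triangles mark the limit of 3 counts where no UMI was found, as for Csf3r in T cell-like cells.

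The fibroblast-like cells of the libraries fell largely into different clusters. The class had 5 clusters of a clustering that used no member gene and no correction for library. Differences of cell state and of preparation between the libraries cannot be told apart in such clusters. Cluster 11, led by Col3a1, Col1a1 and Col1a2, held 1089 Has2-TG and 27 WT cells, and cluster 14, led by collagens with Sparc and Postn, held 551 Has2-TG and 27 WT cells. Cluster 12, led by Prg4 and Ptx3, held 289 Has2-TG and 784 WT cells. Cluster 13, led by Tnc and Cxcl14, held 153 Has2-TG and 694 WT cells, and cluster 10 held 141 Has2-TG and 573 WT cells of low depth, with medians of 996 UMIs in Has2-TG and 1289 UMIs in WT. Clusters 12 and 13 came back at 3 other random starts of the clustering, tried after seeing the data, with a Jaccard index (shared cells over all cells of both) of at least 0.968 each time. Clusters 11 and 14 were joined into 1 at 1 of those starts. Summed over the 8 fibroblast markers, the level was 56482 CPM in Has2-TG and 21380 CPM in WT cells of the class, a ratio of 2.64, and the part of these differences in the ligand ratios was not tested.

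Within clusters the ligands did not all follow the class. In cluster 12, Csf3 had 763 CPM in Has2-TG and 499.6 CPM in WT cells, a ratio of 1.53 (1.48 to 1.58), opposite to the class. In cluster 13, Csf3 had 447 CPM in Has2-TG and 912 CPM in WT cells, a ratio of 0.490 (0.471 to 0.510). At the 3 other starts the Csf3 ratio lay between 1.51 and 1.53 in cluster 12 and between 0.488 and 0.490 in cluster 13. Cluster 11, almost wholly of the Has2-TG library, had 276 CPM of Csf3 there, and cluster 14 had 79.5 CPM. The 27 WT cells of cluster 11 had 333 CPM (ratio 0.830, 0.722 to 0.957). Those of cluster 14, also 27, had 283 CPM (ratio 0.281, 0.237 to 0.335). In the shallow cluster 10, Csf3 had 15 UMIs or 53.1 CPM in Has2-TG and 197 UMIs or 172 CPM in WT cells, a ratio of 0.308 (0.169 to 0.521) that lay between 0.246 and 0.513 at the other starts. Csf3 was thus lower in Has2-TG within clusters 10 and 13, and within clusters 11 and 14 with their few WT cells, but not within cluster 12. Csf2 was lower in Has2-TG in clusters 12 and 13. It had 263 CPM in Has2-TG and 376 CPM in WT cells of cluster 12 (ratio 0.700, 0.665 to 0.737). In cluster 13 it had 94.6 CPM in Has2-TG and 279.6 CPM in WT cells (ratio 0.338, 0.310 to 0.369). Csf1 was lower by a smaller factor, with ratios of 0.847 in cluster 12 and 0.781 in cluster 13. In cluster 10, Csf2 had 14 UMIs in Has2-TG and 40 in WT cells, a ratio of 1.42 whose interval (0.711 to 2.66) included 1. Il34 was not higher in Has2-TG cells of cluster 12 or 13, with 2 UMIs in Has2-TG and 39 in WT cells of cluster 12 (ratio 0.127, 0.0148 to 0.490) and 7 UMIs in Has2-TG and 35 in WT cells of cluster 13 (ratio 0.844, 0.316 to 1.93). Il34 UMIs of the Has2-TG class lay mainly in clusters 11 and 14. Cluster 11 held 196 of them or 7.05 CPM, and cluster 14 held 128 or 7.97 CPM. The WT library had 27 cells in each of these clusters. Those of cluster 11 held 6 Il34 UMIs or 9.71 CPM, a ratio of 0.727 (0.328 to 2.004). Those of cluster 14 held 1 UMI or 1.91 CPM, a ratio of 4.17 (0.735 to 166). In cluster 10, Il34 had 1 UMI in Has2-TG and none in WT cells. No cluster thus had an interval of the Il34 ratio wholly above 1.

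**Figure D3:**
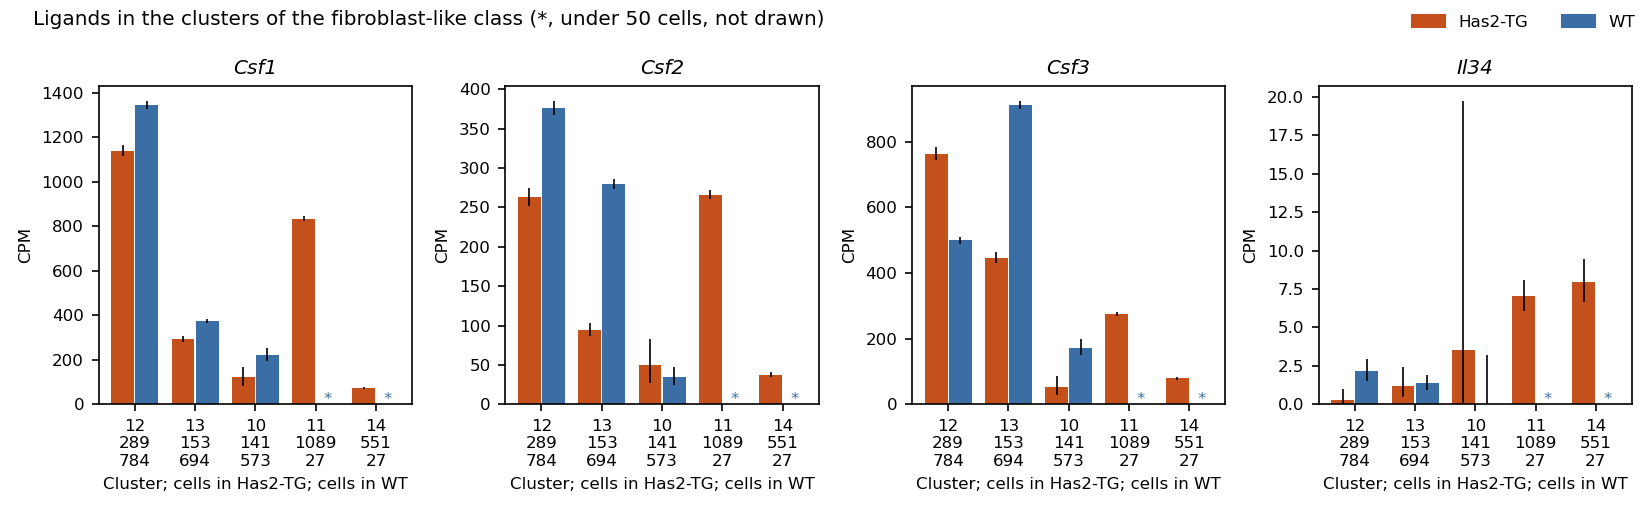
Ligand levels (CPM, vertical axes, linear) in the 5 clusters of the fibroblast-like class, Has2-TG left of WT, with 95% Poisson intervals and, under each cluster number, its cells in Has2-TG and then in WT. Asterisks mark WT bars left out because the cluster held under 50 cells of that library, and Csf3 is higher in Has2-TG cells of cluster 12 (763 against 499.6 CPM) and lower in those of cluster 13, with the highest Il34 bars in clusters 11 and 14.

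Splitting the class by marker-defined states changed some ratios. Cells were called inflammatory with at least 50% of a list (Il6, Lif, Cxcl1, Cxcl5, Mmp3) and a smaller share of the myofibroblast list given below. They made up 50.6% of Has2-TG and 72.5% of WT fibroblast-like cells. In them Csf1 had 856 CPM in Has2-TG and 798 CPM in WT cells, a ratio of 1.07 (1.05 to 1.09), above 1 where that of the class was below. Csf3 had 469 CPM in Has2-TG and 757 CPM in WT inflammatory cells, a ratio of 0.619 (0.607 to 0.631), nearer to 1 than in the class, and Csf2 had 256 CPM in Has2-TG and 328 CPM in WT, a ratio of 0.778 (0.757 to 0.800). Cells assigned by the same rule to a myofibroblast list (Acta2, Tagln, Lrrc15, Postn, Cthrc1) made up 22.3% of Has2-TG cells and 0.936% of WT cells, 508 and 20 cells. In the 508 Has2-TG myofibroblast-like cells Csf1 had 150 CPM, Csf2 50.6 CPM and Csf3 49.1 CPM, each below its level in the inflammatory cells of that library, whereas Il34 had 7.76 CPM there and 4.74 CPM in the inflammatory cells. The Il34 ratio among inflammatory cells was 2.73 (2.05 to 3.67), so it stayed above 1 in this split and not in clusters 12 and 13. A further 618 Has2-TG and 568 WT cells were assigned to neither state, with under 50% of each list or equal shares of both. Ties were not counted apart. In these cells Csf2 had 156 CPM in Has2-TG and 115 CPM in WT, a ratio of 1.35 (1.22 to 1.51), opposite to the class. Csf1 had a ratio of 1.202 (1.14 to 1.27) and Csf3 of 0.553 (0.514 to 0.596) in these cells, whose median depths were 16493 UMIs in Has2-TG and 1538 UMIs in WT.

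Most Csf2 and Csf3 UMIs of fibroblast-like cells lay in a small part of them. Cells were ranked by raw UMIs, which favours deep cells, and the part of depth in these shares was not tested. The 10% of fibroblast-like cells with the most Csf2 held 94.4% of its UMIs in Has2-TG and 90.3% in WT, and 49 Has2-TG and 59 WT cells held 50% of them. One cell held up to 286 Csf2 UMIs in Has2-TG and 564 in WT. For Csf3 the top 10% held 83.4% in Has2-TG and 69.9% in WT, and 50% of the UMIs lay in 78 Has2-TG and 117 WT cells. Cells with at least 20 Csf3 UMIs were 10.96% of the class in Has2-TG and 19.8% in WT. Csf1 was more evenly spread, with 46.6% of UMIs in the top 10% of Has2-TG cells and 51.8% in that of WT cells. Thinned to 1000 UMIs a cell, Csf1 was found in 34.2% of 2180 Has2-TG and 36.9% of 1897 WT cells, Csf2 in 7.94% and 11.1% of them, and Csf3 in 11.9% of Has2-TG and 22.6% of WT cells. Before thinning, at median depths of 24716.5 UMIs in Has2-TG and 17891.5 UMIs in WT, the shares were 77.3% and 69.2% for Csf1, 18.9% and 22.1% for Csf2, and 30.04% and 41.3% for Csf3. Among T cell-like cells thinned likewise, Csf1 was found in none of 125 Has2-TG and 212 WT cells.

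**Figure D4:**
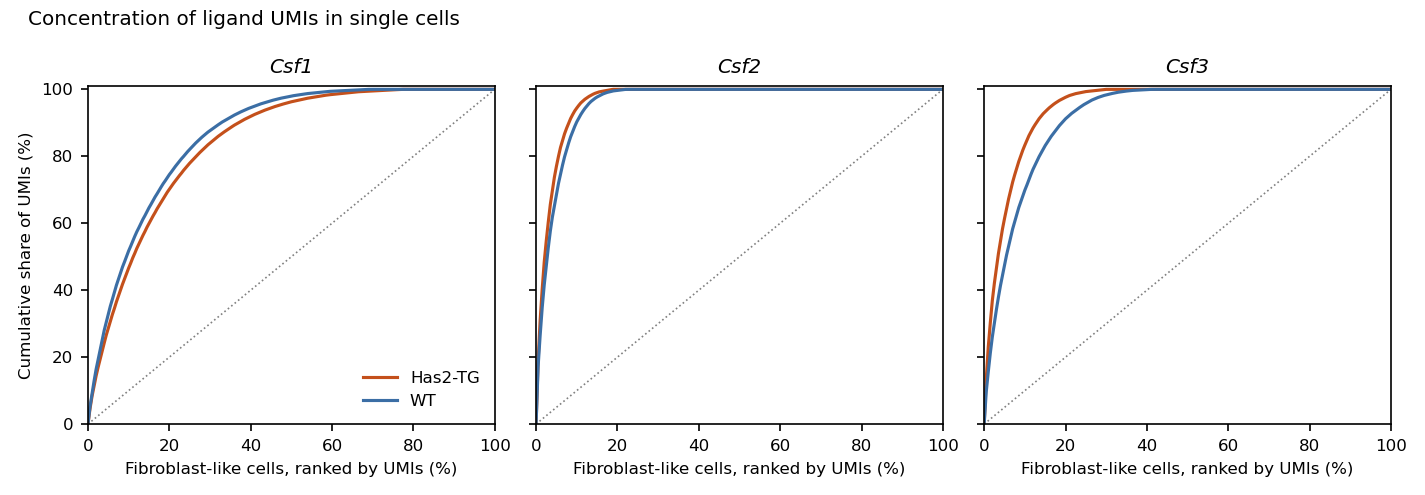
Cumulative share of Csf1, Csf2 and Csf3 UMIs (%, vertical axis) over fibroblast-like cells ranked from the most UMIs to the fewest (%, horizontal axis), with the dotted line for an even spread. Csf2 climbs fastest (94.4% in Has2-TG and 90.3% in WT at 10% of cells), and the Has2-TG curve of Csf3 lies above that of WT.

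Cells with one ligand were compared with cells without it among fibroblast-like cells of at least 5000 UMIs, with no test. In the Has2-TG library, 656 cells with a Csf3 UMI had 138 CPM of Lif, an IL-6 family cytokine, and 1378 cells without one had 49.3 CPM. The WT library showed the same order, with 476 CPM of Lif in 789 cells with Csf3 and 205 CPM in 675 cells without. Csf1 differed between the libraries on this measure: cells with Csf3 had 627 CPM of Csf1 and cells without it 579 CPM in Has2-TG, and 595 CPM with and 1071 CPM without in WT. Acta2, a contractile gene of myofibroblasts, was lower in cells with Csf3 in both libraries, with 70.9 CPM with and 160 CPM without in Has2-TG, and 18.6 CPM with and 46.5 CPM without in WT. Postn and Col1a1 were lower in cells with Csf3 in Has2-TG (ratios of with over without 0.490 and 0.716). In WT both were higher (1.13 and 1.43). Cxcl1 was higher with Csf3 in Has2-TG (1.12) and lower in WT (0.746), and Il6 was higher in Has2-TG (1.65) and in WT (1.09). Cells with a Csf3 UMI were also deeper, with median depths of 31037.5 UMIs with and 24439.5 without in Has2-TG and 34732 with and 20770 without in WT, and the part of depth was not tested.

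Receptor chains were low in fibroblast-like cells. Csf1r had 18.1 CPM in Has2-TG and 14.05 CPM in WT cells, a ratio of 1.29 (1.17 to 1.42), and Csf2ra 9.80 CPM in Has2-TG and 6.01 CPM in WT cells, a ratio of 1.63 (1.41 to 1.89). Csf2rb was 10.9 CPM in Has2-TG and 10.8 CPM in WT cells, with a ratio of 1.002 (0.889 to 1.13). Csf3r had 3.56 CPM in Has2-TG and 3.08 CPM in WT cells, a ratio whose interval spanned 1. Macrophage markers summed to 57.5 CPM in Has2-TG and 29.96 CPM in WT cells of this class, with 5 of 8 higher in Has2-TG, and their part in the Csf1r ratio was not tested. Per 100 UMIs of C1qa, C1qb and Mrc1, Csf1r had 155 UMIs in Has2-TG and 218 UMIs in WT fibroblast-like cells. The values were 11.03 in Has2-TG and 13.0 in WT macrophage or monocyte-like cells. Cells were assigned by these same genes, which bears on the comparison, and RNA carried over from other cells was not tested.

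Other genes of the pathway were read from 4 lists, and counts of higher and lower genes go by the ratio alone, also where its interval includes 1. Of 17 signalling and feedback genes measured in fibroblast-like cells, 4 were higher and 13 lower in Has2-TG, none past 2-fold, with a median log2 ratio of -0.32 against -0.06 over all genes. Stat5a, a transcription factor below the GM-CSF receptor, had 37.7 CPM in Has2-TG and 74.2 CPM in WT cells, a ratio of 0.508, and its close relative Stat5b 17.4 CPM in Has2-TG and 27.8 CPM in WT cells, a ratio of 0.626. Among 13 genes for inducers of the ligands and for decay of their mRNA, 6 were higher and 7 lower, 1 past 2-fold each way. Il1r1, the receptor for IL-1, had 359 CPM in Has2-TG and 579 CPM in WT cells, a ratio of 0.621, and Zc3h12a, an endonuclease that degrades cytokine mRNA, 64.1 CPM in Has2-TG and 112 CPM in WT cells, a ratio of 0.573. Tnf, an inducer of Csf2 and Csf3 in stromal cells, had 16.5 CPM in Has2-TG and 7.51 CPM in WT cells, a ratio of 2.20, and Il1a, an IL-1 cytokine, 11.6 CPM in Has2-TG and 6.12 CPM in WT cells. The 9 myeloid transcription factors measured were 4 higher and 5 lower, 1 past 2-fold each way. Irf8, a monocyte factor, had 0.622 CPM in Has2-TG and 1.72 CPM in WT fibroblast-like cells. Of 8 relatives measured, which share a chain, family or partner with a member, 5 were higher and 3 lower, 2 of these past 2-fold. Neither of those 2 reached 100 UMIs. Flt3l, the ligand of the receptor Flt3, had 3.595 CPM in Has2-TG and 2.19 CPM in WT cells, and Il3ra, the IL-3 receptor chain, 41.9 CPM in Has2-TG and 28.7 CPM in WT cells.

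In macrophage or monocyte-like cells Csf1r was higher in the Has2-TG library. It had 547 CPM in Has2-TG and 384 CPM in WT cells, a ratio of 1.43 (1.40 to 1.46), and cells with at least 20 Csf1r UMIs were 1.71% of the class in Has2-TG and 0.204% in WT. Csf2ra had 186 CPM in Has2-TG and 160 CPM in WT cells, a ratio of 1.16 (1.12 to 1.199). Csf2rb, in contrast, had 721 CPM in Has2-TG and 799 CPM in WT cells, a ratio of 0.902 (0.887 to 0.917) that became 1.002 with cells thinned to 1000 UMIs. Csf3r had 32.5 CPM in Has2-TG and 29.1 CPM in WT cells, a ratio of 1.12 (1.03 to 1.21). Of 7 members measured, 0 were past 2-fold higher and 1, Csf2, was past 2-fold lower, against 3.56% higher and 1.13% lower among 11195 genes.

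The receptor chains divided the class. Cells with a monocyte list (Ly6c2, Chil3, Plac8, Ms4a4c) were 32.3% of the class in Has2-TG and 48.3% in WT, and cells with a resident list (Folr2, Mrc1, Lyve1, Cd163, Cbr2) 31.6% in Has2-TG and 30.6% in WT. Csf2rb had 1182 CPM in Has2-TG and 1104 CPM in WT monocyte-like cells, and 289 CPM in Has2-TG and 328 CPM in WT resident-like cells. Csf1r ran the other way, with 447 CPM in Has2-TG and 375 CPM in WT monocyte-like cells and 686 CPM in Has2-TG and 428 CPM in WT resident-like cells. The Csf1r ratio was thus 1.19 (1.15 to 1.23) in monocyte-like cells and 1.60 (1.55 to 1.66) in resident-like cells. Csf2ra was higher in Has2-TG in both, with 263 CPM in Has2-TG and 201 CPM in WT monocyte-like cells and 112 CPM in Has2-TG and 89.4 CPM in WT resident-like cells. Cells with an osteoclast-like list (Ctsk, Acp5 and others) numbered 157 in Has2-TG and 37 in WT, with 540 CPM of Csf1r in Has2-TG and 298 CPM in WT.

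By cluster, Csf1r was higher in Has2-TG in clusters 5, 6, 7, 8 and 9, with ratios between 1.09 and 1.55, and 0.974 (0.916 to 1.04) in cluster 3. Cluster 7, led by Ccl8 and complement C1q genes, held 1057 Has2-TG and 455 WT cells with 744 CPM of Csf1r in Has2-TG and 480 CPM in WT, a ratio of 1.55 (1.48 to 1.63). Cluster 3, led by Pf4, Arg1 and C1qb, held 391 Has2-TG and 2004 WT cells with 394 CPM in Has2-TG and 404 CPM in WT. At the 3 other starts the Csf1r ratio lay between 1.54 and 1.55 in cluster 7 and between 0.965 and 0.972 in cluster 3, whereas clusters 6 and 8 were joined at 2 of them, with ratios of 1.10 and 1.12. Csf2rb, lower in Has2-TG over the class, had 249 CPM in Has2-TG and 112 CPM in WT cells of cluster 7, a ratio of 2.23 (2.02 to 2.46). In cluster 5, led by MHC class II genes, Csf2rb had 1092 CPM in Has2-TG and 1384 CPM in WT cells, a ratio of 0.789 (0.762 to 0.816). Cluster 9, led by Ctsk, held 843 Has2-TG and 171 WT cells, so the class, like the fibroblast-like one, was made of different clusters in the libraries. Over the class, macrophage markers summed to 7030 CPM in Has2-TG and 5041 CPM in WT, with 4 of 8 higher, and monocyte markers to 2183 CPM in Has2-TG and 3193 CPM in WT, with 0 of 8 higher, and the part of this in the Csf1r ratio was not tested.

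Ligands were sparse in macrophage or monocyte-like cells. Csf1 had 7.45 CPM in Has2-TG and 6.82 CPM in WT cells, with intervals that overlapped. Csf3 had 33.3 CPM in Has2-TG and 45.2 CPM in WT cells, a ratio of 0.737 (0.684 to 0.793), and 64.2% of its UMIs in Has2-TG and 46.5% in WT lay in 1% of the cells. In resident-like cells it had 16.5 CPM in Has2-TG and 56.1 CPM in WT, a ratio of 0.294 (0.252 to 0.342), and in cluster 7 its ratio was 0.273 (0.216 to 0.344). In cluster 8, led by Arg1 and Pf4, it had 165 CPM in Has2-TG and 83.5 CPM in WT, a ratio of 1.98 that lay between 1.71 and 2.47 in the best-matching clusters of the other starts. Csf2 rested on 24 UMIs in Has2-TG and 85 in WT, of which 1 cell held 11 in Has2-TG and 49 in WT. Its ratio was 0.366 (0.223 to 0.582), and it was 0.468 without those cells and 0.892 in the clusters named by markers. Per 100 UMIs of Col1a1, Col1a2 and Col3a1, Csf3 had 54.7 UMIs in Has2-TG and 116 UMIs in WT macrophage or monocyte-like cells. The values were 0.626 in Has2-TG and 5.47 in WT fibroblast-like cells. Cells were assigned by these same collagens, which bears on the comparison, and RNA carried over from fibroblasts was not tested.

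Signalling genes were mostly lower in this class in Has2-TG, 14 of 17, with a median log2 ratio of -0.24 against 0.04 over all genes and 2 past 2-fold. Those 2 were Jak2, the kinase bound to Csf2rb, with 68.5 CPM in Has2-TG and 166 CPM in WT cells, a ratio of 0.412, and Cish, a feedback inhibitor induced through STAT5, with 17.5 CPM in Has2-TG and 36.0 CPM in WT cells, a ratio of 0.485. Of 10 myeloid transcription factors 6 were higher and 4 lower, none past 2-fold. Klf4, a monocyte factor, had 315 CPM in Has2-TG and 196 CPM in WT cells, and Cebpe, a granulocyte factor, 3.44 CPM in Has2-TG and 5.42 CPM in WT cells. Of 12 inducer and decay genes 3 were higher and 9 lower, none past 2-fold. Zfp36l1, which promotes decay of cytokine mRNA, had 228 CPM in Has2-TG and 420 CPM in WT cells, and Tnf 525 CPM in Has2-TG and 333 CPM in WT cells. Of 7 relatives 3 were higher and 4 lower, 1 past 2-fold each way. Kitl, the ligand of the related receptor Kit, had 21.0 CPM in Has2-TG and 7.82 CPM in WT cells, and Kit 0.683 CPM in Has2-TG and 1.76 CPM in WT cells.

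In neutrophil-like cells the receptor chains of all the factors were higher in the Has2-TG library. Csf3r had 764 CPM in Has2-TG and 672 CPM in WT cells, a ratio of 1.14 (1.11 to 1.17). Csf2ra had 346 CPM in Has2-TG and 245 CPM in WT cells, a ratio of 1.41 (1.36 to 1.47), and Csf2rb 836 CPM in Has2-TG and 593 CPM in WT cells, a ratio of 1.41 (1.37 to 1.45). Both GM-CSF receptor chains were thus higher by a larger factor than Csf3r. Csf1r, a gene of the monocyte lineage, had 64.7 CPM in Has2-TG and 41.3 CPM in WT cells, a ratio of 1.57 (1.42 to 1.72). Of 7 members measured, 0 were past 2-fold higher and 1, Csf2, past 2-fold lower, against 4.01% higher and 2.13% lower among 7798 genes. Csf2ra and Csf2rb had ratios above 1 in each of the 4 large clusters of the class, between 1.26 and 1.503 for Csf2ra and between 1.35 and 1.62 for Csf2rb, and those of Csf3r were between 0.972 and 1.39. Cluster 0 came back at 1 other start with a Jaccard index of 0.943, and the other matches of these clusters had indices between 0.293 and 0.770. The best-matching clusters had ratios between 1.33 and 1.51 for Csf2ra, between 1.30 and 1.55 for Csf2rb and between 1.02 and 1.23 for Csf3r. Thinned to 1000 UMIs, Csf3r was found in 48.2% of Has2-TG and 43.9% of WT neutrophil-like cells and in no T cell-like cell of either library (66.8% and 70.4% of neutrophil-like cells before thinning).

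Neutrophil states held the receptors at different levels. Cells with a granule and early list (Retnlg, Mmp8, Lcn2, Ltf, Camp, Ngp) were 4.63% of the class in Has2-TG and 23.1% in WT, and had 928 CPM of Csf3r in Has2-TG and 760 CPM in WT. Cells with a tissue list (Ccl3, Ccl4, Ptgs2, Cd274, Tnf) were 54.8% in Has2-TG and 52.2% in WT, and had 602 CPM of Csf3r in Has2-TG and 584 CPM in WT, a ratio of 1.03 (0.992 to 1.07). Csf3r was therefore lower in tissue-like than in granule-rich cells of both libraries, and among tissue-like cells its interval included 1. Csf2rb in tissue-like cells had 705 CPM in Has2-TG and 530 CPM in WT, a ratio of 1.33 (1.28 to 1.38). In 182 Has2-TG and 166 WT cells with an interferon list, Csf2rb had 1169 CPM in Has2-TG and 589 CPM in WT, a ratio of 1.98 (1.72 to 2.29).

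Neutrophil-like cells held the next largest share of Csf1, 10.6% of its UMIs in Has2-TG and 16.2% in WT. They had 347 CPM in Has2-TG and 331 CPM in WT, a ratio of 1.05 (1.01 to 1.09) that became 0.957 with each cell weighted equally and 0.998 with cells thinned to 1000 UMIs. Thinned so, a Csf1 UMI was found in 21.9% of Has2-TG and 21.5% of WT neutrophil-like cells, against 0.522% of Has2-TG and 0.456% of WT macrophage or monocyte-like cells. Before thinning the neutrophil-like shares were 33.3% in Has2-TG and 37.0% in WT, at median depths of 2068 and 3067 UMIs. Tissue-like cells had 428 CPM of Csf1 in Has2-TG and 443 CPM in WT, and granule-rich cells 114 CPM in Has2-TG and 148 CPM in WT. Per 100 collagen UMIs, Csf1 had 84.1 UMIs in Has2-TG and 392 UMIs in WT neutrophil-like cells. These were 67.1 and 67.4 times the value in fibroblast-like cells of the same library. Assigning cells by the same collagens bears on these factors, and RNA carried over from fibroblasts was not tested.

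Summed over the class, Csf3 was higher in Has2-TG neutrophil-like cells, opposite to fibroblast-like cells. It had 144 CPM in Has2-TG and 103 CPM in WT, a ratio of 1.40 (1.31 to 1.49). The UMIs came from 370 Has2-TG and 489 WT cells, and 1% of the class held 61.7% of them in Has2-TG and 56.9% in WT. Tissue-like cells had 225 CPM in Has2-TG and 166 CPM in WT, a ratio of 1.35 (1.27 to 1.44). Cells assigned to none of the lists, ties included, had 16.9 CPM in Has2-TG and 32.5 CPM in WT, a ratio of 0.521. The ratio was 0.779 (0.363 to 1.49) in granule-rich cells and 0.871 (0.187 to 3.43) in interferon cells. Csf2 was rare, with 27 UMIs in Has2-TG and 132 in WT, a ratio of 0.356 (0.226 to 0.542) that was 0.885 with no removal of doublets and 0.566 in the clusters named by markers.

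Markers of other cells moved with the library in this class. Keratinocyte markers summed to 386 CPM in Has2-TG and 4.89 CPM in WT neutrophil-like cells, with 7 of 8 higher, fibroblast markers to 487 CPM in Has2-TG and 145 CPM in WT, with 7 of 8 higher, and macrophage markers to 485 CPM in Has2-TG and 391 CPM in WT, with 2 of 8 higher. Neutrophil markers summed to 131100 CPM in Has2-TG and 184049 CPM in WT. Their part in the member ratios was not tested. Per 100 collagen UMIs, Csf3 was 34.8 in Has2-TG and 122 in WT neutrophil-like cells, 55.6 and 22.3 times the fibroblast-like value. Per 100 UMIs of C1qa, C1qb and Mrc1, Csf1r was 321 in Has2-TG and 105 in WT, 29.1 and 8.13 times the value in macrophage or monocyte-like cells. The collagens and these macrophage genes are themselves markers by which cells were assigned, which bears on such factors. RNA carried over from other cells was not tested.

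Of 17 signalling genes in neutrophil-like cells 5 were higher and 12 lower in Has2-TG, none past 2-fold. Ptpn6, a phosphatase that dampens cytokine receptors, had 77.5 CPM in Has2-TG and 122 CPM in WT cells, and Cish 44.2 CPM in Has2-TG and 62.6 CPM in WT cells. The 12 inducer and decay genes were 10 higher and 2 lower, with a median log2 ratio of 0.38 against 0.03 over all genes. Among them Tnf had 1485 CPM in Has2-TG and 881 CPM in WT cells, and Il1a 922 CPM in Has2-TG and 546 CPM in WT cells. Of 11 myeloid transcription factors 7 were higher and 4 lower, 1 of these past 2-fold. That 1 was Irf8, with 16 UMIs in Has2-TG and 130 in WT, a ratio of 0.214, while Runx1, a factor of blood cell development, had 558 CPM in Has2-TG and 337 CPM in WT cells. The 6 relatives measured were 3 higher and 3 lower, 2 past 2-fold each way. Of those past 2-fold only Sdc1, a syndecan that binds Il34, reached 100 UMIs, with 25.1 CPM in Has2-TG and 10.6 CPM in WT cells.

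**Figure D5:**
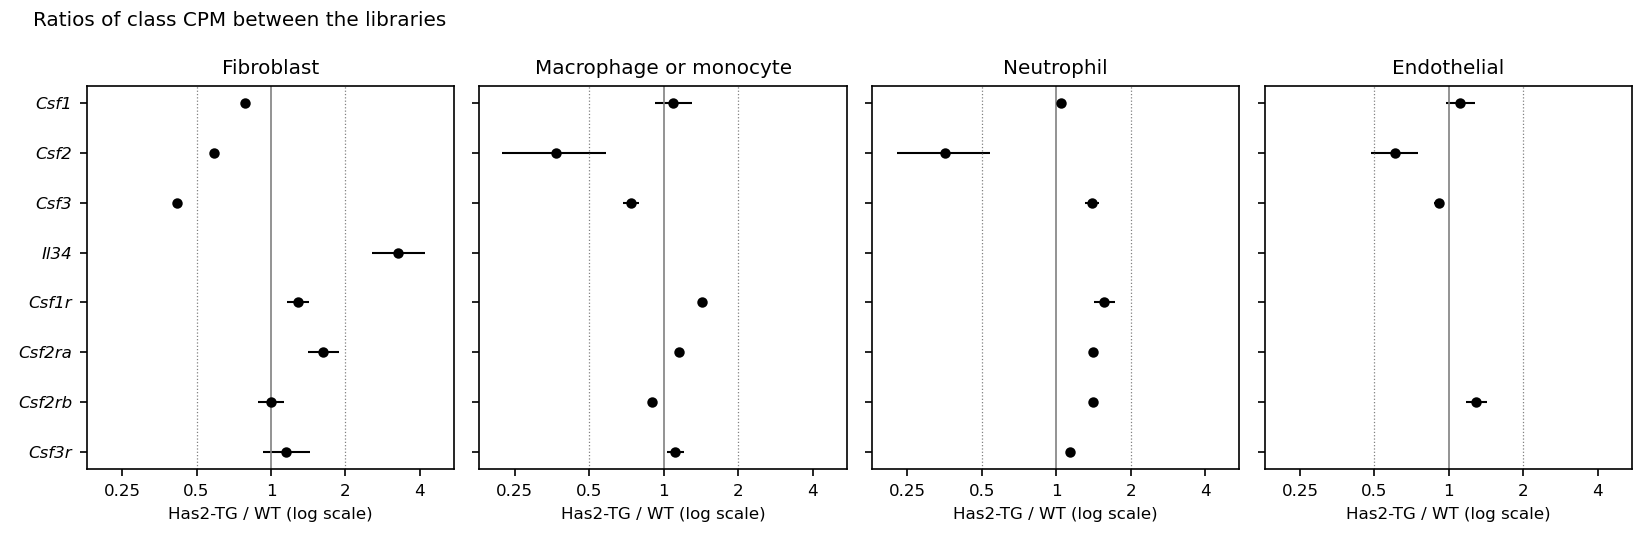
Ratio of class CPM, Has2-TG over WT (log scale), with 95% intervals for counting error, for measured members in 4 classes. The solid line is 1 and the dotted lines mark 2-fold. Csf3 is at 0.418 in fibroblast-like cells and at 1.40 in neutrophil-like cells, and both GM-CSF receptor chains are at 1.41 in neutrophil-like cells.

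Both chains of the GM-CSF receptor were looked for in the same cell, after thinning to 2000 UMIs. Cells under 2000 UMIs were left out, so 2974 of 5487 Has2-TG and 5472 of 6614 WT neutrophil-like cells were read. Both chains were found in 31.2% of the former and 22.8% of the latter. In macrophage or monocyte-like cells the shares were 20.9% in Has2-TG and 18.1% in WT, and in 39 Has2-TG and 164 WT dendritic-like cells 33.3% in Has2-TG and 15.2% in WT. Endothelial-like cells had Csf2rb without Csf2ra in 24.3% of Has2-TG and 28.9% of WT cells and both chains in 0.917% of Has2-TG and 0.508% of WT cells. In fibroblast-like cells both were found in 0.0941% of Has2-TG and 0.240% of WT cells. Mouse Csf2rb has a close copy, Csf2rb2, the IL-3-specific beta chain, and reads of one could be counted for the other. Csf2rb2 had a ratio of 0.954 (0.909 to 1.001) in neutrophil-like cells, where Csf2rb had 1.41, and of 1.52 (1.34 to 1.73) in endothelial-like cells, where it had 145 CPM in Has2-TG and 95.1 CPM in WT.

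Endothelial-like cells carried Csf3 at a level above that of fibroblast-like cells. It had 844 CPM in Has2-TG and 930 CPM in WT cells, a ratio of 0.908 (0.868 to 0.950) that was 1.23 with each cell weighted equally, and 57.5% of Has2-TG and 64.5% of WT cells held a UMI. Csf1 had 113 CPM in Has2-TG and 101.5 CPM in WT cells, and the interval of its ratio, 1.11 (0.975 to 1.27), included 1. Csf2rb had 214 CPM in Has2-TG and 166 CPM in WT cells, a ratio of 1.29 (1.17 to 1.43). Csf2 had 32.5 CPM in Has2-TG and 53.9 CPM in WT cells, but 1 WT cell held 131 of the 246 WT UMIs, and without the richest cell of each library the ratio of 0.603 became 1.06. Of 4 members measured, 0 were past 2-fold in either direction, against 3.12% higher and 0.595% lower among 7897 genes. The 12 inducer and decay genes measured in endothelial-like cells had ratios above 1, 2 past 2-fold, with a median log2 ratio of 0.52 against -0.01 over all genes. For 3 of them, Tnf (1.08, 0.832 to 1.40), Rela (1.04, 0.891 to 1.22) and Zc3h12a (1.07, 0.884 to 1.29), the interval included 1, and these 3 were named after their values were seen. Il1b had 259 CPM in Has2-TG and 87.5 CPM in WT cells, and Il1a 43.1 CPM in Has2-TG and 11.4 CPM in WT cells. Of 16 signalling genes 9 were higher and 7 lower, with Socs3, a feedback inhibitor of cytokine receptors, at 254 CPM in Has2-TG and 91.8 CPM in WT cells. Myeloid transcription factors were 8 higher and 1 lower of 9, among them Klf4 with 190 CPM in Has2-TG and 84.8 CPM in WT cells, and relatives 4 higher and 2 lower of 6. Fibroblast markers in the class summed to 334 CPM in Has2-TG and 112 CPM in WT, with 7 of 8 higher, and macrophage markers to 75.6 CPM in Has2-TG and 39.0 CPM in WT, with 5 of 8 higher. Neutrophil markers summed to 472 CPM in Has2-TG and 878 CPM in WT, with 3 of 8 higher, and the part of these markers in the ratios was not tested.

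T cell-like cells, a known source of Csf2, held 0 Csf2 UMIs in 127 Has2-TG cells, which allows a share of cells with a UMI, not of cells expressing the gene, of up to 2.36%, and 6 UMIs in 4 of 213 WT cells. Csf3r had no UMI in either library. Csf2rb was the 1 member measured, and neither past 2-fold nor stable, against 1.73% higher and 1.35% lower among 2664 genes: it had 52 UMIs in Has2-TG, 51 of them in 1 cell, and 66 in WT, and its ratio of 1.59 became 0.0557 without the richest cell of each library. Of 16 signalling genes measured 10 were higher and 6 lower, 1 past 2-fold. Tyrobp, an adaptor of myeloid receptors, had 20 UMIs in Has2-TG and 93 in WT cells, and Jak2 310 CPM in Has2-TG and 198 CPM in WT cells. Of 13 inducer and decay genes 7 were higher, 2 of them past 2-fold, and 6 lower. Il17f, a cytokine that acts on stromal cells, had 209 UMIs or 453 CPM in Has2-TG and 12 UMIs or 12.9 CPM in WT cells. Of 6 myeloid transcription factors 1 was higher and 5 lower, and of 5 relatives 3 were higher and 2 lower, with 1 past 2-fold lower in each. In this class keratinocyte markers summed to 32.5 CPM in Has2-TG and 208 CPM in WT, with 1 of 8 higher, neutrophil markers to 134 CPM in Has2-TG and 219 CPM in WT, with 1 of 8 higher, and dendritic cell markers to 143 CPM in Has2-TG and 65.4 CPM in WT, with 4 of 8 higher. Their part in these ratios was not tested.

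Smaller classes are given as values, with no comparison. Il34 had 84.5 CPM in 97 Has2-TG and 23.0 CPM in 38 WT cells with pericyte markers, and 81.7 CPM in 48 Has2-TG and 85.3 CPM in 70 WT Schwann-like cells, the highest levels of Il34 in either library. In cells with keratinocyte markers, its known source in skin, Il34 had 8 UMIs in 5 of 174 Has2-TG cells and none in 20 WT cells, which allows a share of cells with a UMI of up to 15.0%. Csf2rb had 2018 CPM in 40 Has2-TG and 1622 CPM in 165 WT dendritic-like cells. In cells with mast cell or basophil markers, Csf2 had 153 CPM in 37 Has2-TG and 144 CPM in 13 WT cells, and Csf2rb 1282 CPM in Has2-TG and 3333 CPM in WT. In a group with innate lymphoid markers that stays unnamed, because none of them was among its top 10 genes, Csf2 had 6 UMIs, all in 1 cell, among 19 Has2-TG cells and 66 UMIs in 40 WT cells, of which 1 cell held 39.

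The order of levels was read within each member over the 5 compared classes, those with at least 100 cells in both libraries. Csf1 ran from fibroblast-like through neutrophil-like and endothelial-like to macrophage or monocyte-like and T cell-like cells in both libraries, with overlapping intervals between the last pair. Csf3 was highest in endothelial-like cells and next in fibroblast-like cells in both. Csf2ra was highest in neutrophil-like cells in both libraries. Among these 5, Csf2rb was highest in neutrophil-like cells in Has2-TG (836 CPM, against 721 CPM in macrophage or monocyte-like cells) and in macrophage or monocyte-like cells in WT (799 CPM, against 593 CPM in neutrophil-like cells). The smaller dendritic-like class lay above both, as given before.

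Genes with the most similar pattern were sought by Pearson's correlation of log2(CPM + 1) over 10 points, the 5 classes in each library, among 12074 genes, as a description with no test, since the points share libraries. Among the 3 nearest were Steap4 (r = 0.984), Nos2 and Tmc4 for Csf1, Klhl29 (r = 0.992), Scd1 and Ror1 for Csf2, and Cebpd (r = 0.960), Zfp532 and Rnd1 for Csf3. For Il34 they were Pkia (r = 0.963), Il17rd and 9530026P05Rik. Among receptors they were Lgals3 (r = 0.982), Slc16a10 and Syngr1 for Csf1r, Cd300ld (r = 0.989), Igsf6 and Gla for Csf2ra, Abcg1 (r = 0.988) and Rhbdf2 for Csf2rb, and Fpr2 (r = 0.993), I830077J02Rik and Ankrd66 for Csf3r. The Csf2rb point of Has2-TG T cell-like cells rests almost wholly on a single cell. Il34 had at most 9 UMIs a library in macrophage or monocyte-like, neutrophil-like and T cell-like cells. How far such points decide the nearest genes was not tested.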

How the data were processed

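The authors deposited gene-by-barcode tables of raw UMI counts for 2 libraries of ulcerated mouse skin, captured with a 10x Genomics GEM-X 5' kit per the labels' protocols. Cell Ranger 9.0.1 and build GRCm39 are named in the submitters' processing notes. The values are whole numbers with no normalization.

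Barcodes under 200 genes or over 15% mitochondrial UMIs were dropped. Scrublet's automatic threshold marked 0% of barcodes, so those with the highest scores were removed at 0.4% per 1000 barcodes (855 Has2-TG and 1156 WT). Each cell was assigned to the class with the most of its 8 markers detected, at least 3 and at least 1 more than the next. Innate lymphoid markers were not counted in cells with at least 3 T cell markers. Plasmacytoid dendritic markers were likewise not counted in cells with at least 3 dendritic markers. No member is a marker, and these thresholds were chosen after the files had been seen. The members, lists and markers were chosen with earlier results of these data known. Classes were compared where each library had at least 100 cells. Among those left out, the top genes of the pericyte gate held more markers of another class than of its own. Those of the innate lymphoid gate held none of its own. Leiden clusters (leidenalg 0.10.2, with 3000 variable genes without members chosen by Scanpy 1.11.5, 30 exact principal components, 15 neighbours and resolution 1.0) served as an alternative and to split classes.

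UMIs were summed per class and library and given as CPM with exact Poisson intervals, ratios (Has2-TG over WT) with exact conditional intervals and shares of cells with a UMI, in percent. With 1 library per genotype there was no test. A member was measured with at least 100 UMIs over both libraries, and list genes with at least 20. Shares past 2-fold over all genes take genes with at least 100 UMIs, so the list counts have no share at the same minimum. A value was past 2-fold after adding 0.5 counts. Subset membership required at least 50% of a list's markers and a larger share than of any other list of that class. Cells with tied lists were left unassigned. Thinned values leave out cells shallower than the set depth. Named genes were the members, in each list and class the 2 to 4 genes of largest ratio that reached 100 UMIs, the 3 most similar genes per member and Has2. Genes leading clusters, genes of the co-detection comparison and Csf2rb2 were named beside these. Of the genes that this rule names, 2 are not reported here. Interval code was tested on simulated counts. Total RNA was the labelled molecule for WT and polyA RNA for Has2-TG, with the same protocol text for both.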

Additional observations from a re-analysis of the deposited data

Results flagged for a closer look

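Summed by class, Csf3 differed in opposite directions in different cells of the same libraries. Its ratio of Has2-TG over WT was 1.40 in neutrophil-like cells, against 0.418 in fibroblast-like cells and 0.737 in macrophage or monocyte-like cells. The 3 values were picked out because the interval of one class lay more than 1.2-fold above 1 and those of the others more than 1.2-fold below it. Within the classes the ratio was not uniform. It was 1.53 in fibroblast cluster 12 and below 1 in the other fibroblast clusters, and between 0.273 and 2.28 in the macrophage clusters. Among neutrophil-like cells it was above 1 in clusters 0, 1, 2 and 4. By state it was 1.35 in tissue-like cells and below 1 in the rest, such as 0.521 in those assigned to no list. With 1 library per genotype the difference was not tested.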

How the results depend on the processing

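The 31 ratios of measured genes in single classes were recomputed under 9 alternatives, 279 values in all. Of these, 202 moved by less than the counting interval, 65 moved by more than that and stayed on the same side of 1, and 12 lay on the other side of 1, and the causes were not tested.

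For Csf3 in fibroblast-like cells the ratio of 0.418 was 0.386 with no doublet removal, 0.408 with a stricter marker gate, 0.550 with each cell weighted equally, 0.549 with cells thinned to 1000 UMIs and 0.437 centred on the median gene. For Csf1r in macrophage or monocyte-like cells the same last 3 settings gave 1.38, 1.34 and 1.39, and marker-named clusters 1.46. Csf3r in neutrophil-like cells was 1.198 with equal weights and 1.18 thinned. Il34 in fibroblast-like cells stayed between 2.90 and 3.85.

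Ratios that changed side were Csf2rb2 in fibroblast-like cells (0.913 with no doublet removal), Csf2rb in macrophage or monocyte-like cells (1.002 thinned), Csf1 in neutrophil-like cells (0.957 as an equal-weight mean, 0.998 thinned), and Csf3 in endothelial-like cells (1.23 as an equal-weight mean). Csf2 in endothelial-like cells became 1.15 as an equal-weight mean, 1.65 thinned and 1.06 without the richest cell of each library. Csf2rb in T cell-like cells became 0.134 in marker-named clusters, 0.0347 with the stricter gate, 0.754 thinned and 0.0557 without the richest cell.

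At 3 other random starts of the clustering, tried after seeing the data, ratios within fibroblast clusters 12 and 13 and macrophage clusters 3, 5 and 7 given in the text kept their side of 1.

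No paired analysis was possible because each genotype had 1 library. Depth limited Csf2 outside fibroblast-like cells and Il34 everywhere.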
